A study of Mus musculus with 3 samples.

Results

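The transcription factor NRF2, its inhibitor and 8 genes known as its targets were examined across single-nucleus ATAC-seq profiles of mouse dorsal skin. The 10 genes were Nfe2l2, which encodes NRF2, Keap1, Hmox1, Nqo1, Gclc, Gclm, Slc7a11, Txnrd1, Srxn1 and Gsr, out of 18019 protein-coding genes with at least 1 measured feature. A gene was measured as the sum of all features overlapping its mm10 body and 2 kb at both ends, which gave 115 of the 315694 features of 500 bp. The genes were picked by name and function, and no measured value entered the rule, though earlier results of these data were known when they were chosen. A window counts a feature for every gene it overlaps, and 1 Keap1 and 1 Txnrd1 feature also lay in the window of a neighbouring gene.

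All mice were Dct-rtTA; Tre-H2B-GFP animals, in which the Dct promoter drives a transactivator that needs doxycycline to turn on nuclear GFP, and all drank water with doxycycline for 5 days. The telogen group was 12 mice with resting hair follicles. The anagen group was 8 mice whose dorsal hair had been removed with Nair cream, with doxycycline given once the growth phase had begun. The UVB group was a pool of 24 mice irradiated 3 times at 2.2 mJ/cm2. The treatment text gives an age of 7 weeks and the sample characteristics 8 weeks. Telogen and anagen mice form 1 GEO sample, and the UVB pool was deposited as technical replicates that were not mapped to nuclei here, so each condition is 1 sample, no comparison has a replicate check and no p-value is given. UVB and its library cannot be told apart. Dct-driven GFP marks melanocytes and any other cell in which that promoter is active, and the sort held many other cell types, as given below.

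ATAC-seq counts transposase insertions, so the values describe how open the DNA of a gene was, not how much RNA it made. After each barcode was counted once per condition 2042 nuclei remained for telogen, 3753 for anagen and 6553 for UVB, which held 5225945, 10397896 and 16182770 counts. The median nucleus held 1650, 1577 and 1726 counts. Second copies of a barcode made up 21.0%, 31.4% and 0.937% of the deposited entries, and 506 barcodes occurred in more than 1 condition. Levels are CPM (the counts of a gene or feature as a share of all counts of the group, on the usual CPM scale) with exact Poisson 95% intervals, and ratios carry exact conditional binomial 95% intervals. Both cover counting error only. They are too narrow, since 61.1% of the entries above 0 had the value 2 and 31.0% the value 1.

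NRF2 is a transcription factor that is held in the cytoplasm and handed to the proteasome by KEAP1, a sensor whose reactive cysteines are modified by oxidants and electrophiles. When KEAP1 is modified, NRF2 accumulates, pairs with small MAF proteins and binds antioxidant response elements near genes that make glutathione, recycle thioredoxin and detoxify quinones and haem. In the skin the pathway is known for its part in the response to ultraviolet light, and melanocytes also meet oxidants made during melanin synthesis.

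RefSeq promoters of GRCm38.p6 were listed for 7 of the 10 genes, in 9 entries that run from 250 bases before to 50 bases after a start. They were searched on both strands for the core letters of the antioxidant response element, TGACNNNGC or TGAGNNNGC. At least 1 match was found in 5 of the 9 entries, against 27.8% of all 32851 listed promoters of the same length. The 5 are shown here because their start features carry the values discussed below, as the 250 bases before the start, read 5′ to 3′ on the strand of the gene, with the matches in capitals. Nfe2l2 is chr2:75704664-75704913 (minus strand), Gclm chr3:122245307-122245556 (plus), Slc7a11 chr3:50443614-50443863 (minus), Txnrd1 chr10:82858956-82859205 (plus) and Srxn1 chr2:152105274-152105523 (plus).
Nfe2l2: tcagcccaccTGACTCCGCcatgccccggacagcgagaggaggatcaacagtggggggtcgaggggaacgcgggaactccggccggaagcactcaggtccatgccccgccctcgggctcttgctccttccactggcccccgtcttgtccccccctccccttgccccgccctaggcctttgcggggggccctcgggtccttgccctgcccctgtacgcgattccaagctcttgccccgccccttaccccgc
Gclm: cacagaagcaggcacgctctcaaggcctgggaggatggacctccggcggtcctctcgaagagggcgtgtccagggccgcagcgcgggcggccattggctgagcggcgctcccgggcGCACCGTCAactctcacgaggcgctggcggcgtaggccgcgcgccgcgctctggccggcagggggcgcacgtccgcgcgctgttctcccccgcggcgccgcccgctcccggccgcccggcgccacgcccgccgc
Slc7a11: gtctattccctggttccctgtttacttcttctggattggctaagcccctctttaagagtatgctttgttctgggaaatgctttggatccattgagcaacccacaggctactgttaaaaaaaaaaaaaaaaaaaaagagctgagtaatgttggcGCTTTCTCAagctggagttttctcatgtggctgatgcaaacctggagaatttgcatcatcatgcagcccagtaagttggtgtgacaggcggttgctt
Txnrd1: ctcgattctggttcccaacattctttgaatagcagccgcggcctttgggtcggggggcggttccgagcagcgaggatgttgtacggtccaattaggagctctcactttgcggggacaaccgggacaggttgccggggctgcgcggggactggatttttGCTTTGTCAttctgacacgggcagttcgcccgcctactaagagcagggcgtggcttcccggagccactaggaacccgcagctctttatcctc
Srxn1: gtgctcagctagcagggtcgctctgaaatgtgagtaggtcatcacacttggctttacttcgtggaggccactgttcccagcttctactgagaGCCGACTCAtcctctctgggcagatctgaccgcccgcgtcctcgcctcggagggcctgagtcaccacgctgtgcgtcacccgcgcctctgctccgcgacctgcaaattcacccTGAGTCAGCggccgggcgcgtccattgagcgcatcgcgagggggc
Srxn1 had the most matches, with first bases at -158 and -45 and another at 29, where the start base is 1. The match at -45 shares its letters with TGACTCA, the site of AP-1 factors read on the other strand. TGACTCA has a second match in that promoter at -102, and it occurs in 5.20% of all listed promoters. Slc7a11 also holds CATGTG, an E-box form, at -74, as do 14.2% of all listed promoters. The matches of Gclm, Slc7a11, Txnrd1 and Srxn1 lay inside the measured feature at the start, and that of Nfe2l2 at -240 lay just outside it. No match was found in the listed promoters of Keap1 and Nqo1. A match describes letters in this window and shows no binding.

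On mm10 the regulator Nfe2l2 is chr2:75675513-75704663 (minus strand) and its inhibitor Keap1 chr9:21229730-21239332 (minus). The glutathione genes are Gclc chr9:77754535-77794489, Gclm chr3:122245487-122267215 (plus), Slc7a11 chr3:50364936-50499087 (minus) and Gsr chr8:33653238-33698162. Txnrd1 is chr10:82833951-82897724 (plus) and Srxn1 chr2:152105524-152111376 (plus), and the haem and quinone genes are Hmox1 chr8:75093618-75100593 and Nqo1 chr8:107388225-107403205 (minus).

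Over all nuclei of the sort, the 10 genes differed little between conditions. Nfe2l2 was at 206 CPM in telogen (194 to 218), 219 in anagen (210 to 228) and 215 in UVB (208 to 223), so its intervals overlap. Keap1, the inhibitor, was at 52.6 CPM in telogen (46.6 to 59.2), 37.0 in anagen (33.4 to 40.9) and 42.1 in UVB (39.0 to 45.4), highest in telogen. Of the 10 genes, 1 was past a 1.5-fold difference in anagen over telogen and none in either comparison with UVB.

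That gene was Txnrd1, the cytosolic thioredoxin reductase, at 90.1 CPM in telogen (82.2 to 98.6), 137 in anagen (130 to 144) and 97.4 in UVB (92.7 to 102). Its anagen over telogen ratio was 1.52 (1.37 to 1.69). Outside the melanocyte-like nuclei described below, whose share was larger in anagen than in telogen, Txnrd1 was at 88.5 CPM in telogen and 89.1 in anagen, not past the fold. Keratinocyte-like nuclei had a ratio of 2.18 (1.69 to 2.80). They joined clusters 3 and 8, which held 217 and 220 telogen nuclei but 314 and 11 anagen nuclei. That ratio therefore compares unlike mixes of these clusters. The part of either mix in the Txnrd1 values was not tested. Among all gene windows with at least 30 counts, 12.9% were higher and 16.3% lower by 1.5-fold in anagen over telogen. For UVB, 9.07% of gene windows were higher and 16% lower than in telogen, and 10.2% higher and 13.1% lower than in anagen. The counts of 1, 0 and 0 of the 10 genes are no larger shares than these.

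The glutathione-making pair was not alike. Gclc, the catalytic subunit of the enzyme that takes the first step of glutathione synthesis, was at 53.8 CPM in telogen (47.7 to 60.4), 68.2 in anagen (63.3 to 73.4) and 74.8 in UVB (70.6 to 79.1). Its UVB over telogen ratio was 1.39 (1.22 to 1.59). Gclm, the modifier subunit, was at 97.4 CPM in telogen (89.1 to 106), 82.0 in anagen (76.6 to 87.7) and 94.8 in UVB (90.1 to 99.7), lowest in anagen. Slc7a11, the cystine transporter subunit that feeds the pathway, was at 42.1 CPM in telogen (36.7 to 48.0) against 35.9 in anagen (32.3 to 39.7) and 42.9 in UVB (39.8 to 46.2). Gsr, which returns oxidised glutathione to its reduced form, was higher in telogen at 45 CPM (39.4 to 51.1) than in anagen at 31.3 (28.0 to 34.8) and UVB at 33.1 (30.3 to 36.0).

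Nqo1, a quinone reductase, was at 37.5 CPM in telogen (32.4 to 43.1), 28.9 in anagen (25.8 to 32.4) and 42.7 in UVB (39.6 to 46.0), and its UVB over anagen ratio of 1.48 (1.29 to 1.69) lay just under the fold. Hmox1, the inducible haem oxygenase, was at 41.9 CPM in telogen (36.5 to 47.8), 53.3 in anagen (48.9 to 57.9) and 50.3 in UVB (46.9 to 53.9). Srxn1, which reduces overoxidised peroxiredoxins, was the 1 target whose level was lowest in UVB, at 37.1 CPM in telogen (32.1 to 42.7), 31.6 in anagen (28.3 to 35.3) and 26.6 in UVB (24.1 to 29.2). Its UVB over telogen ratio was 0.716 (0.603 to 0.852). The median log2 ratio over the 10 genes was -0.23 for anagen against telogen, beside -0.11 over all genes. For UVB it was 0.05 against telogen and 0.11 against anagen, beside -0.13 and -0.03. Scaling to the starts of housekeeping genes instead of all counts adds 0.20, 0.14 and -0.06 to every log2 ratio of these 3 comparisons and turns the direction of 1 value, Gclm in UVB over telogen.

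**Figure D1:**
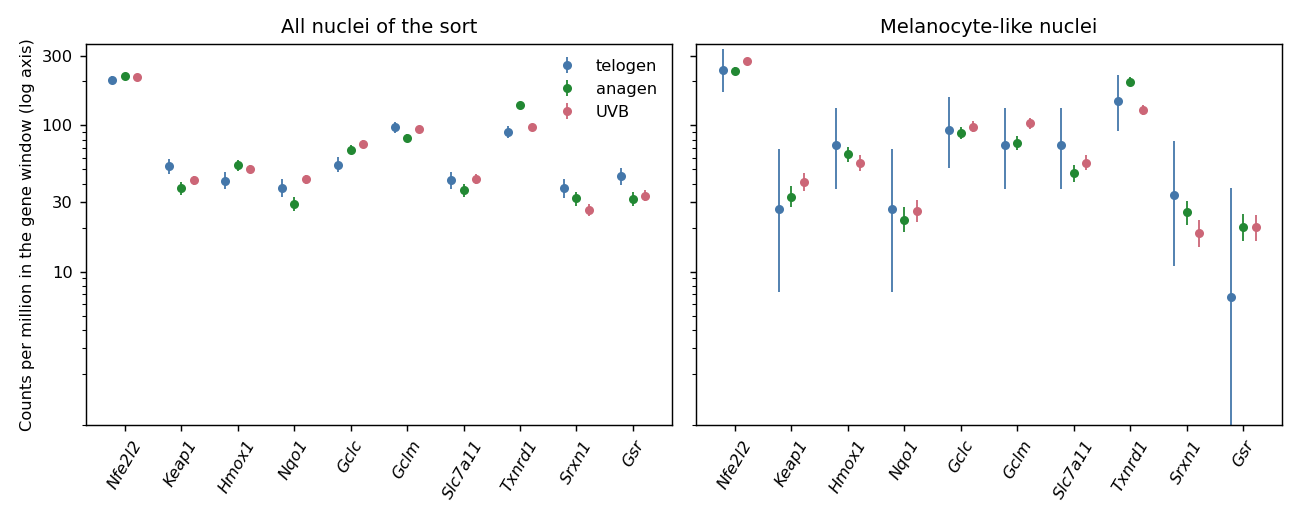
Level of the 10 genes in CPM on a log axis, in all nuclei (left) and melanocyte-like nuclei (right), with points for telogen, anagen and UVB and bars for exact Poisson 95% intervals. Txnrd1 is highest in anagen in both panels, and the wide telogen bars on the right come from 72 nuclei.

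These levels mix cell types whose shares differ between conditions. Clustering of the nuclei gave 12 clusters, of which clusters 1 and 7 were called melanocyte-like by their marker genes. Melanocyte-like nuclei made up 3.53% of telogen (72), 23.0% of anagen (864) and 25.8% of UVB nuclei (1688). All 15 melanocyte markers were above 0 in each condition, and 15, 15 and 14 of them were higher than in the other nuclei. Their summed level was 3586, 5874 and 4022 CPM against 773, 1001 and 1317 in the other nuclei. Schwann markers summed to 654, 611 and 952 CPM in the melanocyte-like nuclei, against 751, 658 and 834 in the other nuclei. In UVB 8 of the 10 Schwann markers were higher in the class. In cluster 1 the Schwann list came next after the melanocyte list, with a median log2 fold of 0.563 against 1.11. The part of the Schwann markers in the results was not tested. The other classes were keratinocyte-, fibroblast-, endothelial-, Schwann-, and myeloid and Langerhans-like, and clusters 2, 6 and 11 stayed unnamed. Cluster 2 had melanocyte as its highest list, but that list led the Schwann list by less than 0.3 on the log2 scale, and the pericyte marker Rgs5 was among its top genes, so it was kept out of the class. It held 7.74%, 7.49% and 19.8% of the nuclei. Without UVB nuclei in the clustering, 3 telogen and 761 anagen nuclei were melanocyte-like, so every value against telogen in this class rests on few nuclei whose class depends on the clustering. Anagen thus fell from 864 to 761 nuclei, and whether the 82 anagen nuclei of cluster 1 were among those lost is not known here.

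The 2 melanocyte-like clusters split by condition. Cluster 1 held 1653 of the 1688 UVB nuclei of the class and 69 of the 72 telogen nuclei, and cluster 7 held 782 of the 864 anagen nuclei. Cluster 7 had 14 and cluster 1 had 9 melanocyte markers at 2-fold or more over the other nuclei, and Oca2, a melanosome transport gene, was among the top genes of cluster 7. Every UVB over anagen value in the class is therefore largely cluster 1 over cluster 7. The median nucleus held 3168.5 counts in anagen and 2333.5 in UVB.

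In melanocyte-like nuclei Txnrd1 was the 1 of 10 genes past the fold in UVB over anagen, and it was lower, at 127 CPM in UVB (117 to 137) against 199 in anagen (187 to 213). The ratio was 0.637 (0.574 to 0.707). In nuclei of 1000 to 3000 counts it was 0.694 (0.550 to 0.881), no longer past the fold, and there Gclc was past it at 1.50 (1.09 to 2.09). Among all gene windows 17.5% were higher and 24.8% lower by 1.5-fold in this comparison. Gclm was higher in UVB, at 103 CPM (94.2 to 112) against 75.9 (68.1 to 84.4), with a ratio of 1.36 (1.18 to 1.56). Nfe2l2 was at 274 CPM in UVB (260 to 289) and 236 in anagen (222 to 251), with a ratio of 1.16 (1.07 to 1.26), and Keap1 had a ratio of 1.27 (1.02 to 1.58). Srxn1 was lower, at 18.4 CPM in UVB and 25.4 in anagen, with a ratio of 0.726 (0.544 to 0.966). The intervals of Hmox1, Nqo1, Gclc, Slc7a11 and Gsr held 1, with ratios from 0.874 for Hmox1 to 1.19 for Slc7a11.

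The median log2 ratio over the 10 genes was 0.17, beside -0.05 over all genes. The scale decides these directions. Housekeeping starts as the scale add -0.44 to every log2 ratio here, so that 1 of 10 genes, Gclm, is above 1 in place of 7. Gclm is then all but level, since its log2 ratio was 0.441 and the shift is -0.439. The shift is the same for every gene, so their order stays.

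Cluster and condition nearly coincide and cannot be told apart here, and the clusters were made from these counts, so the values of Txnrd1 by cluster are a description. Cluster 7 was at 205 CPM in anagen (191 to 219) and 211 in its 35 UVB nuclei (153 to 284). Cluster 1 was at 96.2 CPM in its 82 anagen nuclei (59.6 to 147), 123 in UVB (113 to 134) and 142 in telogen (86.7 to 219). Within cluster 1 the UVB over anagen ratio was 1.28 (0.830 to 2.09) and within cluster 7 it was 1.03 (0.741 to 1.40), while cluster 7 over cluster 1 was 2.13 (1.38 to 3.45) in anagen and 1.71 (1.23 to 2.34) in UVB. The anagen value of cluster 1 rests on 21 counts and the UVB value of cluster 7 on 43.

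For Gclm the cluster 7 over cluster 1 ratio was 0.529 (0.363 to 0.798) in anagen and 0.277 (0.101 to 0.608) in UVB. Within the clusters its UVB over anagen ratio was below 1, whereas the pooled ratio was 1.36. It was 0.773 (0.535 to 1.16) in cluster 1, where the interval held 1, and 0.405 (0.147 to 0.891) on 6 UVB counts in cluster 7. Slc7a11 was higher in UVB within both clusters, at 3.90 (1.32 to 19) on 3 anagen counts in cluster 1 and at 2.12 (1.28 to 3.32) on 21 UVB counts in cluster 7, whereas the pooled ratio was 1.19 (0.986 to 1.43). In nuclei of 1000 to 3000 counts it was 0.819 (0.571 to 1.19). For Nfe2l2 the UVB over anagen ratio was 0.885 (0.693 to 1.15) in cluster 1 and 1.01 (0.742 to 1.35) in cluster 7. For Keap1 it was 0.663 (0.386 to 1.24) on 14 anagen counts in cluster 1 and 0.318 (0.0381 to 1.17) on 2 UVB counts in cluster 7. All of these intervals held 1, whereas the pooled ratios were 1.16 for Nfe2l2 and 1.27 for Keap1.

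**Figure D2:**
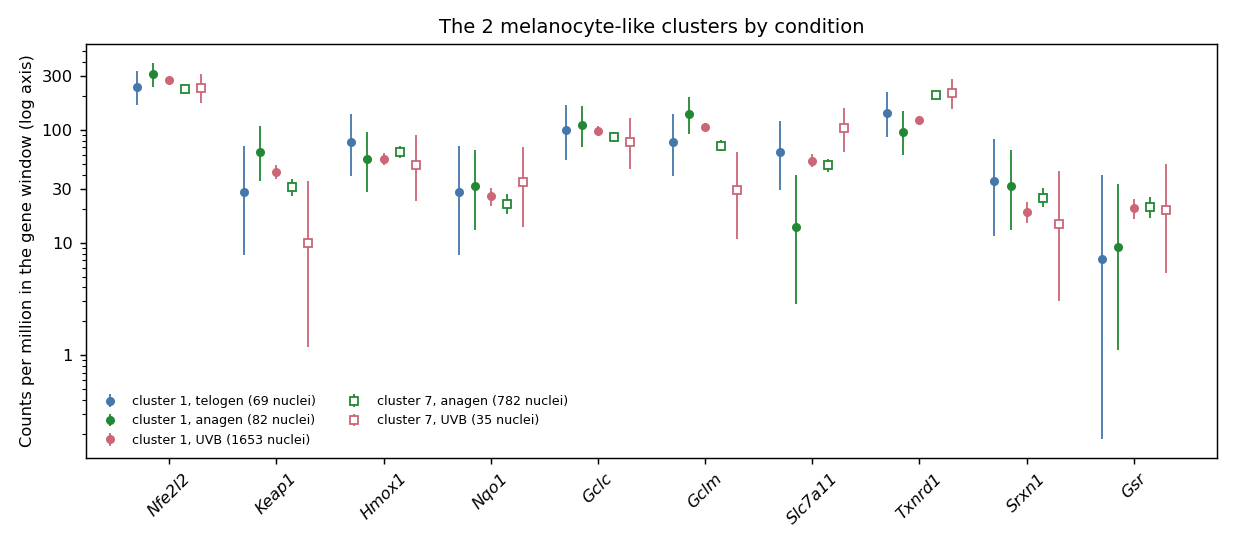
Level of the 10 genes in CPM on a log axis in melanocyte-like clusters 1 (filled circles) and 7 (open squares) by condition, with exact Poisson 95% intervals. Txnrd1 sits near 205 in both cluster 7 groups and between 96.2 and 142 in the cluster 1 groups, and cluster 7 telogen (3 nuclei) is not drawn.

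In telogen melanocyte-like nuclei the 10 genes had from 1 count (Gsr) to 36 counts (Nfe2l2). The intervals of all 10 ratios against telogen held 1 in both comparisons. Past the fold were 1 gene higher (Gsr, on 1 telogen count) and 1 lower (Slc7a11) in anagen over telogen, where 27.7% of all gene windows were higher and 29.1% lower. In UVB over telogen 2 were higher (Keap1 and Gsr) and 1 lower (Srxn1), where the background was 22.5% higher and 24.1% lower. At this depth no difference of the 10 genes from telogen was detectable in the class.

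Compared with the other nuclei of the same condition, Txnrd1, Slc7a11, Gclc and Nfe2l2 were higher in the class in both anagen and UVB. Gsr, Nqo1 and Srxn1 were lower in both, and all of these intervals were off 1. Txnrd1 was 2.24 times (2.01 to 2.50) as high in anagen and 1.50 times (1.35 to 1.66, just under the fold before rounding) in UVB. Slc7a11 was 1.71 times (1.39 to 2.11) and 1.49 times (1.27 to 1.74), and Gclc 1.68 times (1.45 to 1.96) and 1.51 times (1.34 to 1.70) as high. Gsr stood at 0.503 (0.390 to 0.645) and 0.520 (0.413 to 0.649) of the other nuclei, Nqo1 at 0.674 (0.525 to 0.860) and 0.524 (0.428 to 0.636), and Srxn1 at 0.697 (0.550 to 0.879) and 0.613 (0.480 to 0.776). Nfe2l2 was 1.15 times (1.06 to 1.25) and 1.44 times (1.34 to 1.54) as high. The intervals of the other genes held 1 in 1 of the conditions, with Hmox1 at 1.39 (1.17 to 1.65) and 1.15 (0.992 to 1.34), Keap1 at 0.803 (0.649 to 0.991) and 0.970 (0.818 to 1.15), and Gclm at 0.875 (0.761 to 1.01) and 1.13 (1.01 to 1.26). Past the fold were 3 higher and 1 lower in anagen, with 24.3% and 24.4% of all gene windows, and 1 higher and 3 lower in UVB, with 13.6% and 26.4%.

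Across the 9 classes and unnamed clusters, Nfe2l2 was lowest in keratinocyte-like nuclei in each condition, at 148 CPM in telogen (130 to 168), 162 in anagen (130 to 200) and 140 in UVB (128 to 153). It was highest in myeloid and Langerhans-like nuclei in telogen, at 376 CPM (326 to 433), and in UVB, at 417 (349 to 494). In anagen cluster 11, whose top genes include the leukocyte gene Ptprc, was highest at 596 CPM (471 to 744). Melanocyte-like nuclei lay between these, at 240 (168 to 333), 236 and 274 CPM.

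The level of Slc7a11 in its highest class was 13.7 times that in its lowest in telogen, 11.2 times in anagen and 8.04 times in UVB. In UVB it was at 70.6 CPM in keratinocyte-like (62.1 to 80) and 55.7 in melanocyte-like nuclei (49.2 to 62.7), and at 8.79 in fibroblast-like (6.01 to 12.4) and 13.5 in Schwann-like nuclei (7.40 to 22.7). In telogen fibroblast-like nuclei were again lowest at 6.94 CPM (2.25 to 16.2), and in anagen endothelial-like nuclei were lowest at 10.4 (5.38 to 18.2). Nqo1 was highest in fibroblast-like nuclei in UVB at 72.5 CPM (64.0 to 81.8) and in telogen at 61.1 (44.4 to 82.0). It had 0 counts in Schwann-like nuclei of telogen and anagen, in cluster 11 of anagen and in myeloid and Langerhans-like nuclei of UVB, which allows up to 27.2, 25.1, 28.2 and 11.6 CPM. Schwann-like nuclei of UVB were at 31.9 CPM (22.0 to 44.8).

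Txnrd1 was at 207 CPM in anagen keratinocyte-like nuclei (170 to 249), beside 199 in melanocyte-like ones (187 to 213), and these neighbours do not differ beyond their intervals. In UVB melanocyte-like nuclei were highest at 127 CPM and keratinocyte-like nuclei next at 112 (101 to 123). Gsr was highest in keratinocyte-like nuclei in anagen at 81.9 CPM (59.5 to 110) and in UVB at 54.4 (47.0 to 62.7), against 20.0 and 20.1 in melanocyte-like nuclei. Gclm spanned less than the others in telogen and UVB, with its highest class 1.79 and 1.84 times its lowest.

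**Figure D3:**
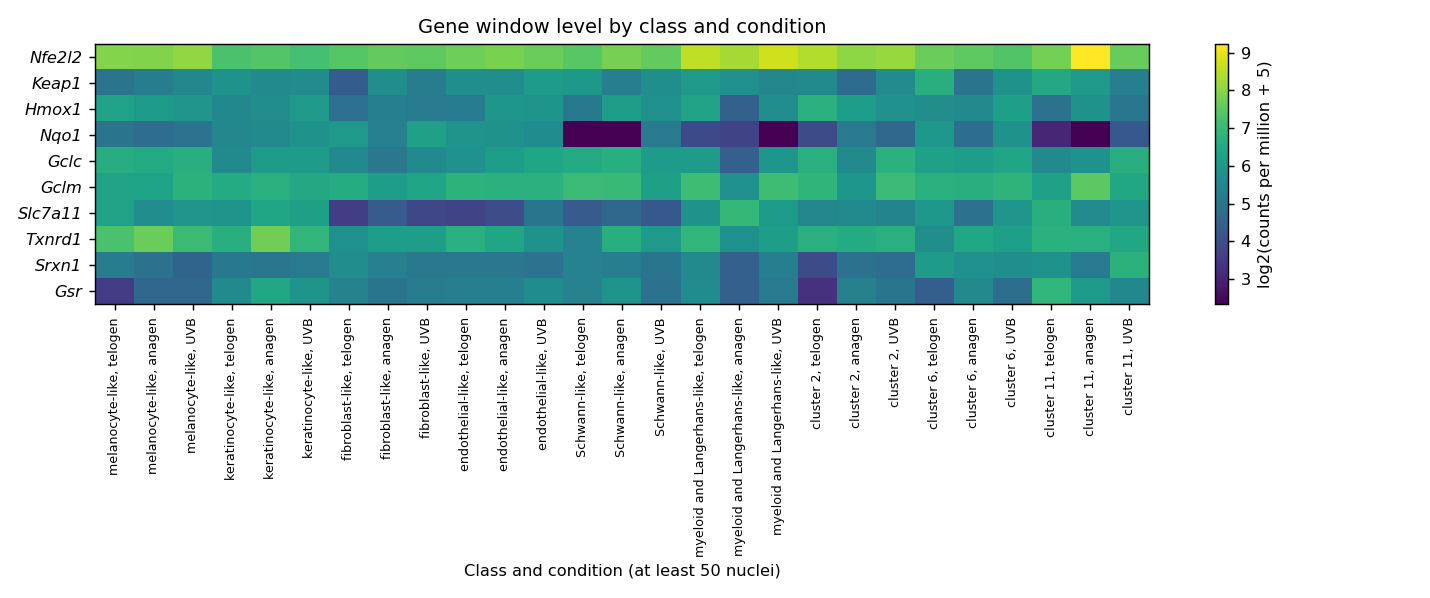
Level of each gene, as log2(CPM + 5), in every class and condition with at least 50 nuclei. Dark cells mark Slc7a11 in fibroblast-, endothelial- and Schwann-like nuclei and Nqo1 where it has 0 counts, and Nfe2l2 is the brightest row.

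Single features within the genes differed between conditions where the gene sums were near level. Gene starts are those of the listed promoter, or, where none was listed (Hmox1, Gclc and Gsr) or several were (Txnrd1), the end or entry whose feature held the most counts. Distances run from that start to the centre of the feature, negative upstream. The reference lists gene bodies without exons, so exonic and intronic positions are not given. In melanocyte-like nuclei 48 of the 115 features had at least 30 counts, of which 8 were higher by 1.5-fold in UVB over anagen and 18 lower, with intervals off 1 for 8 and 13 of them. These are 16.7% and 37.5% of the 48, beside 23.7% and 41.8% of all features.

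The start feature of Nfe2l2 (chr2:75704365-75704865) held the most counts of all, at 125 CPM in UVB against 65.2 in anagen, a ratio of 1.91 (1.66 to 2.20). The start features of Gclc (chr9:77754288-77754788, 47.6 against 22.5 CPM, ratio 2.12, 1.67 to 2.70) and Gclm (chr3:122245323-122245823, 87.9 against 57.9 CPM, ratio 1.52, 1.30 to 1.78) were also higher. The first feature of Gsr, centred 267 bp after its start, was at 11.6 against 6.46 CPM, a ratio of 1.79 (1.13 to 2.92). The start feature of Srxn1, which holds 3 matches to the antioxidant response core, went the other way, at 9.31 against 15.8 CPM, a ratio of 0.589 (0.396 to 0.868). On the housekeeping scale the start ratios were 1.41 for Nfe2l2, 1.56 for Gclc, 1.12 for Gclm and 1.32 for Gsr, so that Gclc alone of these 4 was still past the fold, and the intervals of Gclm (0.958 to 1.31) and Gsr (0.831 to 2.15) then held 1.

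The start features of Txnrd1 (44.5 against 33.4 CPM, ratio 1.33, 1.08 to 1.65), Hmox1 (38.7 against 35.8, ratio 1.08, 0.870 to 1.34), Keap1 (14.7 against 10.9, ratio 1.35, 0.923 to 1.98), Nqo1 (11.8 against 9.79, ratio 1.20, 0.798 to 1.83) and Slc7a11 (13.9 against 13.8, ratio 1.00, 0.70 to 1.44) were not past the fold. The share of nuclei with a count at the Nfe2l2 start was 17.0% in UVB and 16.9% in anagen at unequal depth. In nuclei of 1000 to 3000 counts, with medians of 1889 and 1849.5, the Nfe2l2 start ratio was 1.63 (1.23 to 2.20), that of Gclc 2.58 (1.48 to 4.88) and that of Gclm 1.29 (0.931 to 1.81), no longer past the fold. The Srxn1 start was at 0.206 (0.0786 to 0.511) there, the Gsr feature at 3.84 (0.954 to 33.5) on 2 anagen counts, and the Slc7a11 start at 0.454 (0.204 to 1.04).

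The Nfe2l2 start was at 60.6 CPM in anagen (53.4 to 68.4) and 58.9 in UVB nuclei (30.4 to 103) of cluster 7, and at 156 in anagen (108 to 218), 127 in UVB (117 to 138) and 128 in telogen (75.7 to 202) of cluster 1. Its UVB over anagen ratio was 0.818 (0.579 to 1.19) within cluster 1 and 0.972 (0.496 to 1.73) within cluster 7, and both intervals held 1 and lay below the pooled 1.91. For Gclc the ratio was 1.32 (0.658 to 3.09) within cluster 1 and 1.35 (0.484 to 3.06) within cluster 7, too few counts to tell. The Gclm start was at 0.794 (0.530 to 1.24) within cluster 1, where the interval held 1, and at 0.357 (0.0965 to 0.927) on 4 UVB counts within cluster 7. Both ratios lay below 1, whereas its pooled ratio lay above 1. The Srxn1 start was at 0.405 (0.161 to 1.31) on 5 anagen counts and 0.636 (0.0754 to 2.39) on 2 UVB counts, and both intervals held 1.

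Features away from the starts were mostly lower in UVB. Txnrd1 had the clearest case, a feature at -6160 bp, inside the longer gene model (chr10:82852796-82853296). It was at 48.5 CPM in anagen (42.3 to 55.4) and 11.8 in UVB melanocyte-like nuclei (8.93 to 15.3), a ratio of 0.243 (0.178 to 0.327), and it was the most counted Txnrd1 feature in anagen melanocyte-like nuclei, above the start. Of its 221 anagen counts 218 came from melanocyte-like nuclei, where 105 of 864 nuclei from 7 tag numbers carried it. The other anagen nuclei were at 0.508 CPM. In cluster 7 it was at 51.0 CPM in anagen (44.5 to 58.2) and 58.9 in UVB (30.4 to 103). In cluster 1 it was at 9.72 CPM in UVB (7.09 to 13.0) and had 0 counts in anagen and telogen, which allow up to 16.9 and 26.2 CPM.

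Other Txnrd1 features were also lower in UVB over the class. The one 4194 bp after the start was at 16.5 CPM in anagen and 0.828 in UVB, a ratio of 0.0502 (0.0133 to 0.134), and the one at -5582 bp was at 6.23 and 0.828, a ratio of 0.133 (0.0338 to 0.380). At 15455 bp (chr10:82874411-82874911) anagen had 55 counts and UVB 0. By its interval, UVB was at most 0.0645 of anagen. Within cluster 7 the features at 4194 and 15455 bp had 0 UVB counts, against 73 and 55 in anagen, and both intervals held 1. The feature 497 bp after the start had a ratio of 0.578 (0.391 to 0.846), and the one at -687 bp was higher in UVB, at 36.2 against 22.5 CPM, a ratio of 1.61 (1.25 to 2.08). This last feature was higher in UVB within both clusters, at 7.68 (1.36 to 305) on 1 anagen count in cluster 1 and 2.52 (1.26 to 4.6) on 12 UVB counts in cluster 7. The housekeeping scale multiplies its pooled ratio by 0.738, which takes it under the fold with an interval that holds 1.

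Nfe2l2 had 4 features between 5625 and 23042 bp after its start that were lower in UVB with an interval off 1. Their ratios were 0.256 (0.101 to 0.575) at 5625 bp, 0.407 (0.200 to 0.784) at 15105 bp, 0.116 (0.0299 to 0.328) at 17065 bp and 0.393 (0.227 to 0.659) at 23042 bp. The feature at -644 bp was also lower, at 0.631 (0.406 to 0.969). The feature at 21528 bp was at 32.9 CPM in UVB and 30.3 in anagen over the whole class, a ratio of 1.09 (0.859 to 1.38). In nuclei of 1000 to 3000 counts its ratio was 2.19 (1.22 to 4.28) on 13 anagen counts, past the fold. Over all depths this feature was 3.70 times (2.86 to 4.79) as high in melanocyte-like as in other nuclei of UVB and 2.48 times (1.85 to 3.35) in anagen. Gclc had a feature at 17367 bp with a ratio of 0.258 (0.114 to 0.531). At 5474 bp Gclc was at 14.7 CPM in UVB and 21.4 in anagen, and this feature was 4.39 times (2.92 to 6.69) and 9.01 times (5.12 to 17.1) as high as in other nuclei.

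Single Slc7a11 features differed in opposite directions between UVB and anagen melanocyte-like nuclei, where its sum was near level, and others differed between cell types. The feature 55142 bp after the start was at 10.0 CPM in anagen and 2.28 in UVB melanocyte-like nuclei, a ratio of 0.227 (0.106 to 0.446). The one at 79802 bp, beyond the end of the gene (chr3:50363561-50364061), was at 5.79 and 16.3 CPM, a ratio of 2.82 (1.79 to 4.58), and the one at -2143 bp had a ratio of 2.79 (1.21 to 7.18). The housekeeping scale multiplies these ratios by 0.738, and the interval at -2143 bp then held 1. The feature at 46529 bp had 0 counts in melanocyte-like nuclei of every condition, and 49 counts (14.0 CPM, 10.3 to 18.5) in keratinocyte-like nuclei of UVB and 29 counts (18.3 CPM, 12.3 to 26.3) in those of telogen. The feature at -13146 bp, inside the longer gene model (chr3:50456509-50457009), was at 26.2 CPM in keratinocyte-like nuclei of UVB (21.1 to 32.1) and at 1.86 in melanocyte-like ones.

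Nqo1 had a feature 13415 bp after its start that was higher in UVB melanocyte-like nuclei, at 8.69 against 3.78 CPM, a ratio of 2.30 (1.28 to 4.30). The housekeeping scale multiplies this ratio by 0.738, and its interval then held 1. The Nqo1 feature at 16802 bp, beyond the end of the gene (chr8:107386153-107386653), belonged to other cells. It was at 27.5 CPM in fibroblast-like nuclei of UVB (22.3 to 33.4) and had 2 counts in melanocyte-like nuclei of UVB.

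**Figure D4:**
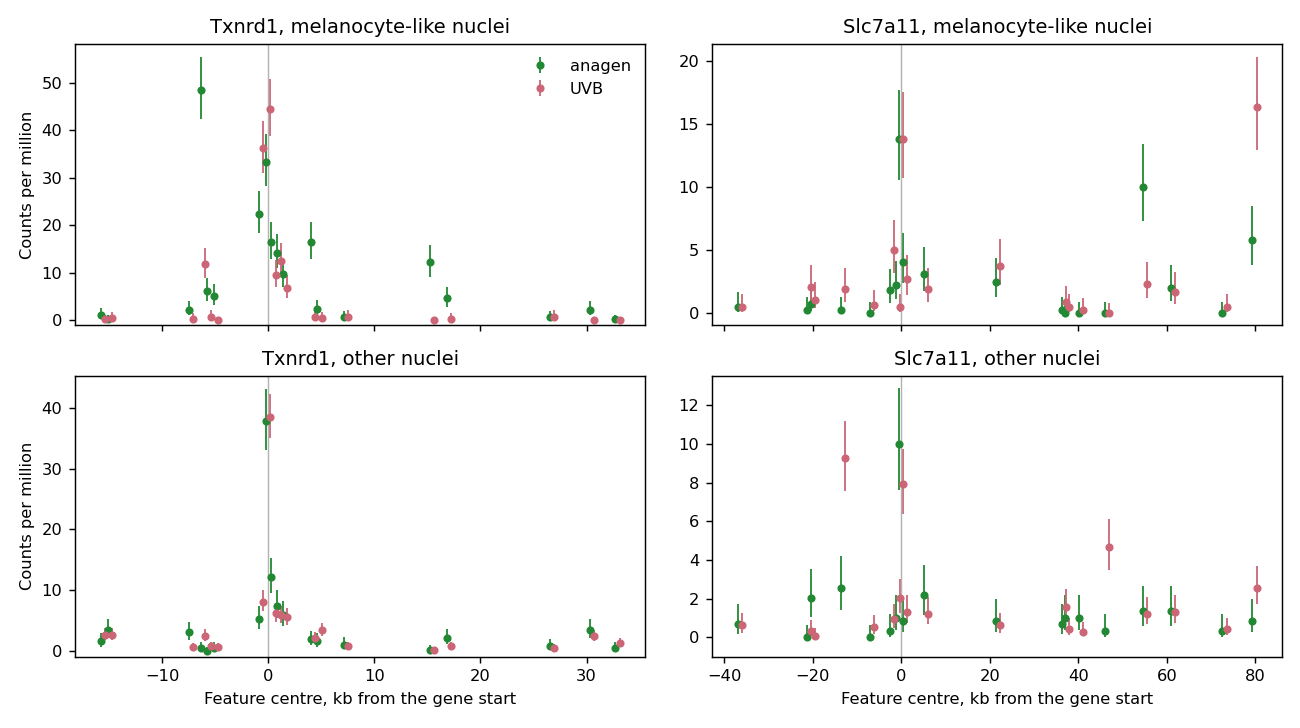
CPM of each Txnrd1 (left) and Slc7a11 (right) feature against its distance from the gene start in kb, in melanocyte-like (top) and other nuclei (bottom) of anagen and UVB, with exact Poisson 95% intervals. The anagen point at 48.5 upstream of the Txnrd1 start is nearly absent from other nuclei, and Slc7a11 has points in other nuclei at 46529 and -13146 bp that are at or near 0 above.

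Split by distance, features near a start were level and those farther away mostly lower, as over all features. Within 1 kb of a start 22 of 26 features had at least 30 counts, 5 higher and 4 lower in UVB over anagen (22.7% and 18.2%), beside 23.4% and 23.8% of all features near a gene start. Farther away 26 of 89 had enough counts, 3 higher and 14 lower (11.5% and 53.8%), beside 23.8% and 48.9% of all others. The median log2 ratio was 0.15 near the starts and -0.74 farther away, against 0.08 and -0.54 over all features. The share of the counts of the 10 genes that lay within 1 kb of a start was 70.1% in UVB and 54.6% in anagen melanocyte-like nuclei, and over all genes it was 42.5% and 34.4%. The lower share away from starts in UVB was seen over all genes too. Among nuclei of 1000 to 3000 counts the shares were 70.0% and 59.6%, and they were 70.7% and 78.7% within cluster 1 and 56.9% and 53.3% within cluster 7, each for UVB and anagen in that order.

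**Figure D5:**
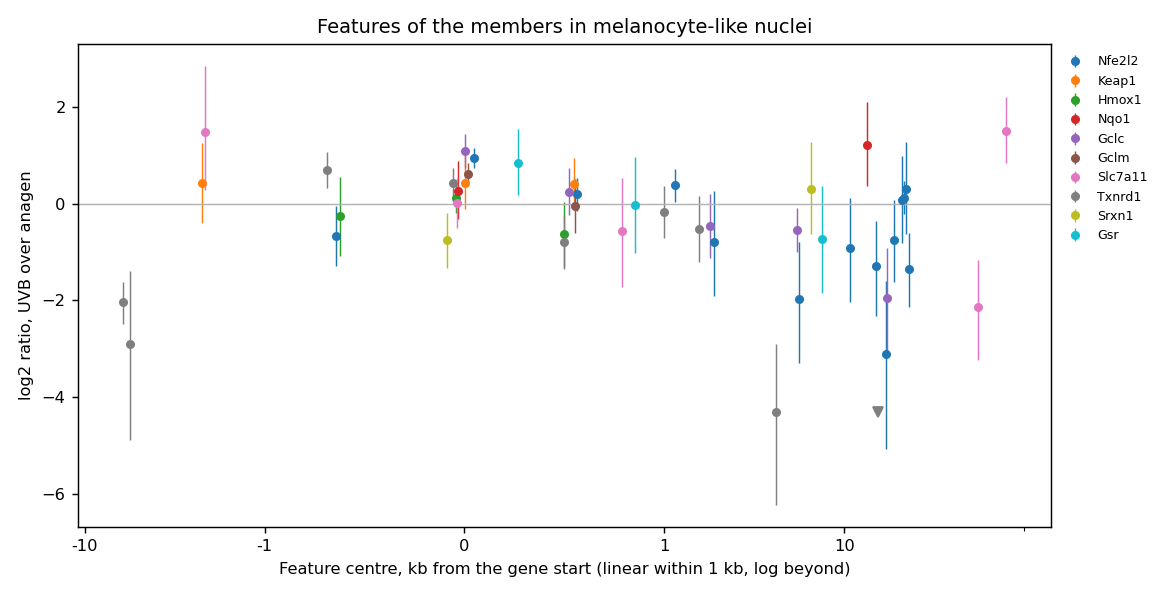
log2 ratio of UVB over anagen in melanocyte-like nuclei for the 48 member features with at least 30 counts, against distance from the gene start, with exact conditional binomial 95% intervals. Points within 1 kb have a median of 0.15 and those farther away of -0.74, and the triangle marks the Txnrd1 feature with 0 UVB counts, drawn at the floor of 3 counts.

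Over all nuclei 68 member features had at least 30 counts when anagen was set against telogen, 22 higher and 13 lower (32.4% and 19.1%), where 39.4% and 22.1% of all features were. UVB over telogen had 15 higher and 15 lower of 71 (21.1% each), against 30.8% and 24.3%, and UVB over anagen 12 higher and 27 lower of 89 (13.5% and 30.3%), against 24.7% and 32.9%. Set against the other nuclei, 24 features were higher and 7 lower of 51 in anagen melanocyte-like nuclei (47.1% and 13.7%), beside 41.3% and 35% of all features. In UVB 16 were higher and 14 lower of 56 (28.6% and 25.0%), beside 24.8% and 49.3%. In telogen the start feature of Keap1 was at 23.0 CPM, against 11.6 in anagen and 14.3 in UVB, with an anagen over telogen ratio of 0.507 (0.390 to 0.658). The first feature of Gsr was at 21.4 CPM in telogen, 9.04 in anagen and 14.3 in UVB, and its anagen over telogen ratio was 0.422 (0.317 to 0.560).

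Of 65 further genes of the pathway (partners and brakes of NRF2, glutathione making and use, thioredoxin and peroxiredoxin, NADPH supply, superoxide and haem handling, and detoxification), 59 had at least 30 counts in UVB over anagen melanocyte-like nuclei. Of these 8 were higher and 10 lower by 1.5-fold, smaller shares than the 17.5% and 24.8% over all gene windows, and their median log2 ratio was 0.12, beside -0.05. The highest were Slc40a1, the iron exporter, at 38.3 against 11.4 CPM (ratio 3.37, 2.46 to 4.69), Bach2, which encodes a repressor that competes for NRF2 sites, at 548 against 228 CPM (2.40, 2.23 to 2.58), and Txnip, the thioredoxin inhibitor, at 129 against 71.5 CPM (1.80, 1.57 to 2.07). The lowest were Chac1, which breaks down glutathione, at 2.48 against 10.7 CPM (0.232, 0.112 to 0.444), Ephx1, an epoxide hydrolase, at 27.9 against 81.5 CPM (0.343, 0.279 to 0.419), and Me1, a source of NADPH, at 59.6 against 115 CPM (0.520, 0.448 to 0.602). The 6 groups had median log2 ratios from -0.60 for the 6 NADPH genes (4 lower and 1 higher, against the same 24.8% and 17.5%) to 0.21 for glutathione making and use (2 lower and 2 higher of 19).

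Against telogen melanocyte-like nuclei, 11 of 56 pathway genes were higher and 11 lower in anagen, where 27.7% and 29.1% of all gene windows were. In UVB 10 were higher and 8 lower of 57, where 22.5% and 24.1% of all were. The shares of the pathway genes were smaller than these. In anagen over telogen the highest were Tkt (ratio 6.77, 1.86 to 56.1, on 2 telogen counts), Me1 (4.29, 1.67 to 15.8) and Ephx1 (366 counts against 0, at least 3.29-fold higher by its interval), and the lowest were Glrx (0.192, 0.0896 to 0.470), Sod1 (0.510, 0.297 to 0.948) and Txn1 (0.546, 0.392 to 0.783). In UVB over telogen Tkt (4.46, 1.22 to 37.0), Mafk (2.41, 1.22 to 5.61) and Prdx6 (200 counts against 0, at least 1.66-fold higher by its interval) led, and Glrx (0.306, 0.148 to 0.733), Sod1 (0.538, 0.314 to 0.998) and Txn1 (0.620, 0.445 to 0.887) were lowest. Both comparisons share the 72 telogen nuclei, of which 3 stayed in the class without UVB nuclei in the clustering.

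Barcodes carry a tag number that the labels do not explain, so tag numbers are not replicates, but they show the spread within a condition. In tag numbers with at least 50 melanocyte-like nuclei, Txnrd1 ranged from 178 to 216 CPM over 4 in anagen (median 183) and from 89.3 to 182 over 9 in UVB (median 129), so the ranges just overlap. Nfe2l2 ranged from 218 to 290 CPM (median 243) and from 222 to 329 (median 275), and Gclm from 60.1 to 80.3 (median 68.2) and from 77.8 to 165 (median 99.3). The ranges of these genes also overlap.

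Across the 27 class and condition groups with at least 50 nuclei, the levels of the 10 genes were weakly related to one another. The strongest pairs were Gclc and Hmox1 (Pearson r of 0.61) and Nqo1 with Nfe2l2 (r of -0.60). By this measure the most alike gene was Trf for Nfe2l2 (0.87), Snapc3 for Gclc (0.82), Afg3l1 for Srxn1 (0.81), Stc2 for Nqo1 (0.80), Irf7 for Gsr (0.80), Patj for Txnrd1 (0.78), Ezr for Slc7a11 (0.78), Wwp1 for Hmox1 (0.75) and Lsmem1 for Keap1 (0.67). The groups share libraries and differ in depth, so these values are descriptions.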

How the data were processed

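The authors deposited 1 matrix per condition, with whole-number counts for each nucleus in features of 500 bp. The submitters' processing notes name Bowtie2, SAMtools and MACS2 with no version, and give the build as mm10 (GRCm38). Not given in the sources used here: how reads became counts, any shift of cut sites, and filters on nuclei or doublets. Doublets were not called. No count was above 4.

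Each barcode was counted once per condition, the deepest entry kept. TF-IDF weights were computed for 163616 features, which left out the top 1% and any open in under 20 nuclei, and reduced to 30 components (1 left out) and clustered by the Leiden method on 15 neighbours (resolution 0.6, seed 1). A cluster was named from marker lists where at least 3 markers were at 2-fold, the list led the next by 0.3 on the log2 scale, and no other list had more markers among the top 10 genes. Gene positions and promoters are RefSeq's (GRCm38.p6). A call needed a ratio of 1.5 either way and at least 30 counts over both groups. For calls, a 0 was set to a floor of 3 counts, and printed bounds are those of the 95% intervals.

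All 10 genes were named, with the feature at the start and the most counted feature of each gene, and features past the fold with an interval off 1 were named where they carry a described difference. The pathway genes named are the 3 highest and 3 lowest past the fold, and the most alike gene was taken by Pearson r of log2(CPM + 5) over genes with at least 300 counts. That for Gclm is not reported here. The genes, lists, naming rule and tests were chosen with earlier results of these data known. The split by cluster, by distance to a start, and the nuclei of 1000 to 3000 counts were chosen after seeing these data. The ratio interval was tested on simulated independent Poisson counts. These lack the many entries of value 2 found in the real counts, so the test does not show how well the interval covers here. Scripts ran in Python 3.11.15 (pandas 2.3.3, numpy 2.4.6). Clustering used leidenalg 0.10.2 on igraph 0.11.9 with scikit-learn 1.9.0, intervals came from scipy 1.17.1, and figures from matplotlib 3.10.9.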

Additional observations from a re-analysis of the deposited data

How the results depend on the processing

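The median log2 ratio over the 10 genes was recomputed for each comparison under other counting, scale, depth, class and overlap choices. Under these choices 66 medians lay within the median of the 95% intervals of the 10 genes and 5 moved. In UVB over anagen melanocyte-like nuclei the median of 0.17 became -0.27 on the housekeeping scale and -0.16 in cluster 1 alone. In anagen over telogen over all nuclei the median of -0.23 became 0.072 without nuclei above 3 times the median count, 0.085 in nuclei of 1000 to 3000 counts and 0.12 with telogen tag numbers 8 to 10 alone. The cause was not tested.

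Among values for single genes, 563 stayed within their interval, 111 moved and 7 of those past the fold changed sign. The values that follow are log2 ratios. In UVB over anagen melanocyte-like nuclei Txnrd1 went from -0.65 to 0.36 in cluster 1 alone. The other 6 rest on telogen melanocyte-like nuclei. Slc7a11 in anagen over telogen became 0.44 with nuclei thinned to 1000 counts, 0.23 with clustering seed 3, 0.020 without nuclei above 3 times the median and 0.67 in nuclei of 1000 to 3000 counts. In UVB over telogen Keap1 became -0.37 with seed 3 and Gsr -1.01 after thinning. The settings that join cluster 2 to the class, take cluster 1 alone or keep 1000 to 3000 counts were chosen after seeing the data. No paired analysis was possible because each condition is 1 sample. For the same reason no replicate could be left out, and depth limits the telogen melanocyte-like values to 1 to 36 counts a gene.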
